A study of Mus musculus with 4 samples.

Results

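The 9 genes described here are those of Usher syndrome, taken by name from the deposited table of 22095 loci: *Myo7a*, *Ush1c*, *Cdh23*, *Pcdh15*, *Ush1g*, *Cib2*, *Gpr98*, *Dfnb31* and *Clrn1*. Of these, 8 were listed under the name given, and *Dfnb31* was found as *Whrn*, its RefSeq symbol, which is used below. RNA-seq was performed on 4 libraries of whole retina from mice at 3 weeks of age, 2 from *rd7* and 2 from wild-type C57BL/6J animals, and each library pooled 8 retinas of 2 females and 2 males, so the spread between replicates is that between pools of animals. The *rd7* mice are labelled as *Nr2e3* mutants of strain C57BL/6J, and no other allele or treatment is given for either group. Nr2e3 is a transcription factor of rod development, and the rods of *rd7* mice are rod and cone hybrids. The comparison asks which transcripts differ between these hybrid retinas and normal ones.

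Usher syndrome is an inherited loss of hearing and sight, and its clinical types 1, 2 and 3 differ in severity and onset. The proteins bind one another through PDZ and other domains and form links in the hair bundle of the inner ear. In photoreceptors they are placed at the periciliary membrane, beside the connecting cilium that carries proteins to the outer segment, and at the calyceal processes, microvilli that surround the base of the outer segment. Mice lacking single Usher genes are usually deaf, while their retinas degenerate late or mildly.

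The mutated gene itself, *Nr2e3*, had an FPKM of 2493 and 1589 in the libraries labelled *rd7* and of 385 and 394 in those labelled wild-type, a log2 fold change of 2.35 (limma adjusted p = 0.0011). Its transcript was thus higher in the mutant, opposite to what a loss of the gene would give. The label names a mutation and not a loss of transcript, so this level alone does not check which group is the mutant. The summed cone markers given below were higher in both libraries labelled *rd7*, the direction that rods with cone features would give. Which cells hold these transcripts was not tested. FPKM is the number of sequenced fragments per kilobase of transcript, scaled to a fixed number of mapped fragments, so levels can be set side by side between genes. A median of the lowest values put the reads behind the FPKM at about 3.5e7 to 3.6e7 in each library. It was taken within a fixed window and lay near its middle, so the figure and its likeness between libraries are partly set by the window. The figure is approximate and need not equal the number of reads mapped. The read estimates given below share these limits. They also use an exonic length merged over all transcripts of a gene, which may put them too high. Markers of retinal cells were present in all libraries. The summed FPKM of 7 rod markers was 9586 and 10235 in *rd7* against 13055 and 13325 in wild-type retinas, and that of 10 cone markers was 4517 and 4809 against 1453 and 1497. The sums of 10 Müller cell markers (1874 and 1940 against 1604 and 1638) and of 8 bipolar cell markers (768 and 617 against 551 and 517) were closer between the genotypes. By the test used below, 4 of the 7 rod markers were lower and none higher, and 8 of 10 cone, 5 of 10 Müller and 6 of 8 bipolar markers were higher and none lower, where 37.6% of all genes tested were called higher and 8.8% lower. The count of Müller markers lay near that share. In whole retina, fewer cells of a type and less RNA per cell cannot be told apart.

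In wild-type retinas the Usher genes covered a wide range of levels. *Pcdh15*, one of the cadherins, was the highest with a mean of 35.5 FPKM, followed by the scaffold gene *Whrn* at 32.1, by *Cib2*, which encodes a calcium-binding protein, at 13.7, by the adhesion receptor gene *Gpr98* at 10.7 and by the myosin gene *Myo7a* at 8.71. *Clrn1*, the gene of the small membrane protein clarin-1, had a mean of 2.32 FPKM. The other 3 were under 1 FPKM, with 0.725 for *Ush1g*, 0.142 for *Cdh23* and 0.0813 for *Ush1c*. Neighbours in this order did not overlap in their library values, but with 2 libraries per genotype this spread is known only roughly. The order was the same in *rd7* retinas. Among the 12655 genes tested, the wild-type mean of *Pcdh15* lay at the 85.8th percentile and that of *Clrn1* at the 13.5th.

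**Figure D1:**
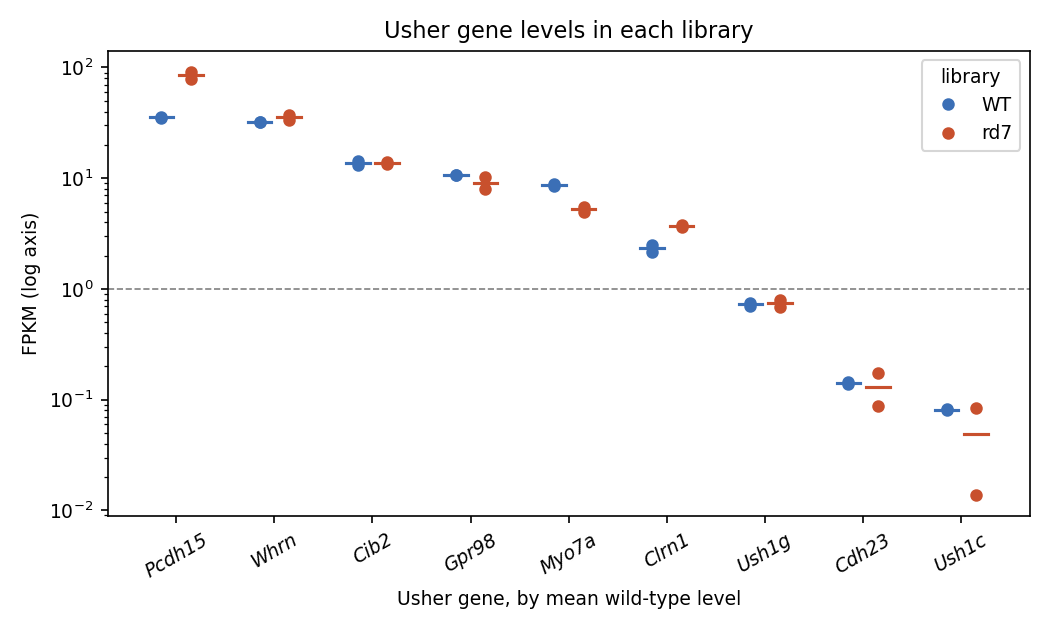
FPKM (log axis) of the 9 Usher genes in each library, ordered by their mean in wild-type retinas; points are libraries, short bars are the mean of 2, and the dashed line marks 1 FPKM, the mean needed to enter the test. *Pcdh15* and *Clrn1* lie higher and *Myo7a* lies lower in both *rd7* libraries, and *Ush1g*, *Cdh23* and *Ush1c* lie under the line.

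Of the 9 genes, 6 had a mean of at least 1 FPKM and were tested. *Pcdh15* and *Clrn1* rose in *rd7* retinas, *Myo7a* fell, and *Cib2*, *Gpr98* and *Whrn* were not called. *Ush1c*, *Ush1g* and *Cdh23*, all of type 1, were too low for the test. The test was limma on log2(FPKM + 0.1), two-sided, with an FDR of 5% by Benjamini-Hochberg adjustment over all genes tested. Thus 2 of 6 were called higher, compared with 37.6% of all genes tested, and 1 of 6 was called lower, compared with 8.8%. In 5 of the 6 both *rd7* values lay on one side of both wild-type values, which held for 76.6% of all genes tested. The median log2 fold change of the 6 was 0.08, beside 0.15 over all genes tested. As a group the Usher genes were therefore close to the background of this comparison, and the results lie in single members.

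A promoter of each of the 3 genes called is shown because these genes moved in different directions in the mutant of a transcription factor. Each sequence holds the 250 bases before the gene start of the RefSeq table (GRCm38.p6), 5′ to 3′ on the strand of the gene, and each was placed on mm9 by a unique exact match. Capitals mark matches, on either strand, to TAATCC (recognized by CRX), AAGTCA (a half-site of receptors of the NR2E3 type), TGCTGA (a half-site of NRL and other MAF proteins) or TATAAA (the TATA box). *Pcdh15* is at chr10:73284365-73284614 on the plus strand, *Clrn1* at chr3:58689135-58689384 on the minus strand and *Myo7a* at chr7:105268004-105268253 on the minus strand.
Pcdh15: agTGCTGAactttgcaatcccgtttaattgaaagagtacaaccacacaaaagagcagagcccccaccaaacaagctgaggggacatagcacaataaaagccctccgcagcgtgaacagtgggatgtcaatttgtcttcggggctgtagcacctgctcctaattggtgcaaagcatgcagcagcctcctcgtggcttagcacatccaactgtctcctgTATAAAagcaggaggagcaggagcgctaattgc
Clrn1: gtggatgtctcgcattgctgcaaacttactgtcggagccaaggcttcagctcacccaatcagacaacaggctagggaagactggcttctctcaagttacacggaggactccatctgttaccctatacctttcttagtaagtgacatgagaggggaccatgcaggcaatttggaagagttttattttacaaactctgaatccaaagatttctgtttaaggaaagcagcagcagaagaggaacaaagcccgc
Myo7a: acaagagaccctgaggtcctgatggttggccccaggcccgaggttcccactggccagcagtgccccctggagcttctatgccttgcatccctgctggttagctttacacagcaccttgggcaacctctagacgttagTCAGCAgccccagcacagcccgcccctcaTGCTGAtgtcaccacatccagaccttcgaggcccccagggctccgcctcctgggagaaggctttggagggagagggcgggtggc

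The *Pcdh15* promoter held 1 TATAAA, at bases -33 to -28 from the gene start, and 1 TGCTGA, at -248 to -243. The *Myo7a* promoter shown held TGCTGA at -84 to -79 and, on the other strand, at -113 to -108, and its second promoter in the RefSeq table (chr7:105257759-105258008) held none of the 4 motifs. *Clrn1* held none of the 4 motifs. RefSeq promoters were found for 8 of the 9 Usher genes, with 2 for *Myo7a*, and among these 9 promoters TAATCC was in 0, AAGTCA in 1 (*Cib2*), TGCTGA in 2 and TATAAA in 1. In all 32851 promoters of the same length the shares were 6.25%, 13.1%, 16.1% and 12.4%. No match overlapped another in the promoters of the Usher genes. These are letter matches in a window of 250 bases, and no binding was measured.

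*Pcdh15* (chr10:73284615-74112475 of mm9) measured 79.4 and 91.2 FPKM in *rd7* against 35.3 and 35.7 FPKM in wild-type retinas. Both *rd7* values were more than double either wild-type value, while the wild-type pair was nearly identical. Its log2 fold change was 1.26 (SE 0.07, 95% interval 1.08 to 1.44, limma adjusted p = 0.000486), or 2.39-fold, at the 98.9th percentile of the genes tested. Protocadherin-15 forms the lower end of the tip link of hair cells, and in photoreceptors it is found at the calyceal processes. The gene was called higher under all 14 alternatives, with the log2 fold change between 0.80 (corrected for locus span) and 1.36 (without *rd7* replicate 1). No other locus of the table overlaps it. The GENCODE annotation of this build gives it 37 transcripts, some of which begin upstream of the deposited locus, at 72562090, and FPKM per gene does not say which of them changed.

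*Cdh23* (chr10:59766022-60159238) measured 0.173 and 0.0870 FPKM in *rd7* against 0.138 and 0.146 FPKM in wild-type retinas. Cadherin-23 pairs with protocadherin-15 in the tip link, yet its transcript was far lower than that of *Pcdh15*, which exceeded it 245 to 256 times in wild-type retinas. The *rd7* values lay on both sides of the wild-type pair, with -0.10 on the log2 scale without the filter (95% interval -0.72 to 0.52, limma adjusted p = 0.776). An estimated 104 and 51.4 reads lay behind the *rd7* values and 82.7 and 87.9 behind the wild-type values, so the *rd7* replicates differed more than the wild-type ones. The gene *4632428N05Rik*, on the other strand within its locus, had 0.648 to 1.03 FPKM. *Psap*, also on the other strand and within 2 kb of the locus, had 299 to 332 FPKM. The kit described does not mark strand, and the part of reads from these genes in the values of *Cdh23* was not tested.

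*Myo7a* (chr7:105199570-105268003) measured 5.52 and 4.97 FPKM in *rd7* against 8.90 and 8.52 FPKM in wild-type retinas. Both *rd7* values were well under both wild-type values, and replicates were close within each genotype. It fell by 0.72 on the log2 scale (SE 0.08, 95% interval -0.91 to -0.53, limma adjusted p = 0.00192), or 1.65-fold lower, at the 1.47th percentile of all genes tested. Myosin VIIa is an actin motor of the photoreceptor cilium that also moves melanosomes in the pigment epithelium, the other main site of its expression in the eye. The gene was lower in 14 of 14 alternatives, with changes from -0.98 to -0.64.

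Since *Myo7a* is shared with the pigment epithelium, the markers of that tissue were read beside it. The summed FPKM of 11 markers was 64.8 and 52.6 in *rd7* and 34.7 and 23.4 in wild-type retinas, and 25.5 and 17.7 against 13.6 and 10.3 without *Ttr*. In 6 of the 11 both *rd7* values were above both wild-type values and in 1, *Best1*, below, where 57.1% and 19.5% of all genes tested lay above and below. Of the 6 with a mean of at least 1 FPKM, 4 were called higher and none lower, compared with 37.6% and 8.8% of all genes, with a median log2 fold change of 1.02 beside 0.15. The defining markers *Rpe65* and *Lrat* were low, at 2.28 and 2.44 against 1.402 and 0.784 FPKM and at 1.12 and 0.881 against 0.324 and 0.235, and *Mlana* was listed at 0 in wild-type replicate 2. These markers are named after their values were seen. The part of these cells in the values of *Myo7a* was not tested.

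*Ush1c* (chr7:53450721-53493860) measured 0.0139 and 0.0847 FPKM in *rd7* against 0.0811 and 0.0816 FPKM in wild-type retinas. Harmonin, its product, is the PDZ scaffold that binds most other type 1 proteins. The value of *rd7* replicate 1 corresponds to an estimated 1.80 reads, under the worth of 3 reads (0.0231 FPKM), and the other libraries had an estimated 10.5 to 10.8 reads. Without the filter the log2 fold change was -0.32 (95% interval -1.07 to 0.42, limma adjusted p = 0.433). At this depth *Ush1c* was barely detected in any library, and a difference between the genotypes could not be seen.

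*Ush1g* (chr11:115176506-115183232) measured 0.793 and 0.694 FPKM in *rd7* against 0.703 and 0.748 FPKM in wild-type retinas. It encodes SANS, a scaffold with ankyrin repeats. The values overlapped, and an estimated 80 to 93 reads lay behind each. In a fit without the filter its log2 fold change was 0.03 (95% interval -0.36 to 0.41, limma adjusted p = 0.899). The locus lies inside that of *Otop2* on the other strand (0.134 to 0.303 FPKM), and as the kit described does not mark strand, reads in shared exons cannot be assigned.

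*Cib2* (chr9:54393159-54407886) measured 14.1 and 13.4 FPKM in *rd7* against 14.2 and 13.1 FPKM in wild-type retinas. The genotypes overlapped fully, with a log2 fold change of 0.01 (95% interval -0.15 to 0.18, limma adjusted p = 0.883). Its sign turned with the scaling of the libraries, as given in the closing section. Cib2 binds calcium and belongs to the mechanotransduction machinery of hair cells. It is the only Usher gene described here on the chromosome of *Nr2e3*, 5.38 Mb away, so DNA linked to the *rd7* allele and the mutation itself cannot be told apart there.

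*Gpr98* (chr13:81234067-81772143) measured 7.95 and 10.2 FPKM in *rd7* against 10.8 and 10.7 FPKM in wild-type retinas. The wild-type pair was close, and of the *rd7* pair only replicate 1 lay clearly lower. The log2 fold change was -0.25 (95% interval -0.54 to 0.04, limma adjusted p = 0.137). *Gpr98* encodes a very large adhesion receptor whose outer part makes fibrous links at the ciliary base. It was called lower in 4 of 14 alternatives, with median-ratio scaling (-0.40, limma adjusted p = 0.0478), with the corrections for locus span (-0.68) and for exonic GC and length (-0.59), and without *rd7* replicate 2 (-0.43). Without *rd7* replicate 1 it was -0.07. The size and call of the difference in *Gpr98* thus moved with a single library and with the scaling.

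*Whrn* (chr4:63075944-63156985) measured 37.2 and 33.8 FPKM in *rd7* against 32.2 and 32.0 FPKM in wild-type retinas. The *rd7* values were slightly higher without overlap, but they differed more from each other than the nearer one did from wild-type. The log2 fold change was 0.14 (95% interval -0.01 to 0.29, limma adjusted p = 0.106), close to the median of all genes tested (0.15), and it was -0.012 with median-ratio scaling. Whirlin is the PDZ scaffold that holds the type 2 proteins at the periciliary membrane. Without *rd7* replicate 2 it was called higher (0.21, limma adjusted p = 0.00856).

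*Clrn1* (chr3:58649137-58689134) measured 3.66 and 3.77 FPKM in *rd7* against 2.14 and 2.50 FPKM in wild-type retinas. The genotypes did not overlap, and the gap between them was wider than that between the wild-type libraries. Its log2 fold change was 0.66 (SE 0.11, 95% interval 0.39 to 0.93, limma adjusted p = 0.00589), or 1.58-fold. Clarin-1 is a protein with 4 membrane-spanning stretches, needed in hair cells and mutated in Usher syndrome type 3. An estimated 292 to 508 reads lay behind each value. The call was lost without wild-type replicate 1 (0.55, limma adjusted p = 0.0640) and after a GC and length correction of the exons (0.33, limma adjusted p = 0.0606).

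**Figure D2:**
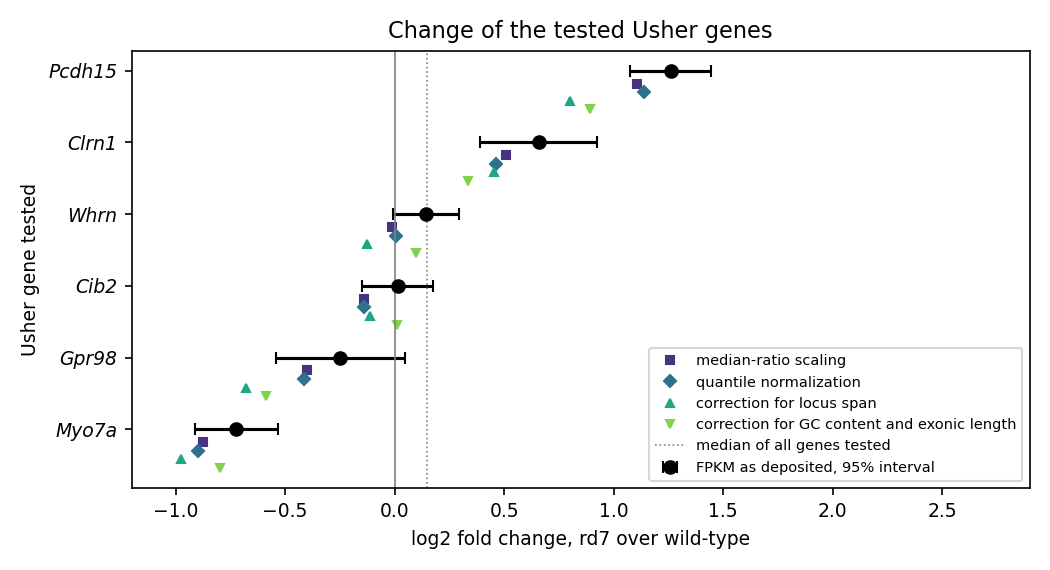
Log2 fold change (*rd7* over wild-type) of the 6 Usher genes tested; black points with bars are the values from FPKM as deposited with their 95% interval, coloured marks are the same gene under 4 alternatives, and the dotted line is the median of all genes tested (0.15). *Pcdh15* stays at or above 0.80 and *Myo7a* at or under -0.72 under these 4, while *Cib2* and *Whrn* lie around 0.

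Because the members changed in opposite directions, their balance within a library was also described. Shares and ratios within a library do not depend on how whole libraries are scaled, whereas sums do. The 9 genes summed to 149 and 158 FPKM in *rd7* and to 104 and 103 FPKM in wild-type retinas. *Pcdh15* made up 53.4% and 57.6% of the sum in *rd7* and 33.8% and 34.5% in wild-type retinas. The other 8 genes together were level, at 69.4 and 67.1 against 69.2 and 67.8 FPKM.

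The ratio of *Pcdh15* to *Myo7a*, both of type 1, was 14.4 and 18.4 in *rd7* and 3.97 and 4.19 in wild-type retinas. *Clrn1* stood to *Myo7a* as 0.663 and 0.759 in *rd7* and as 0.241 and 0.294 in wild-type retinas. The genotypes were apart in both ratios, by more than the spread between replicates. Both set a gene called higher over *Myo7a*, called lower, so this gap restates those calls and adds no support to them. For the type 2 pair, the ratio of *Gpr98* to *Whrn* was 0.214 and 0.302 in *rd7* and 0.334 in both wild-type libraries. The *rd7* values were lower here, but they differed from each other by more than the nearer one differed from wild-type. A permutation test of 2 against 2 libraries cannot reach a p under 0.333, and none was made.

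**Figure D3:**
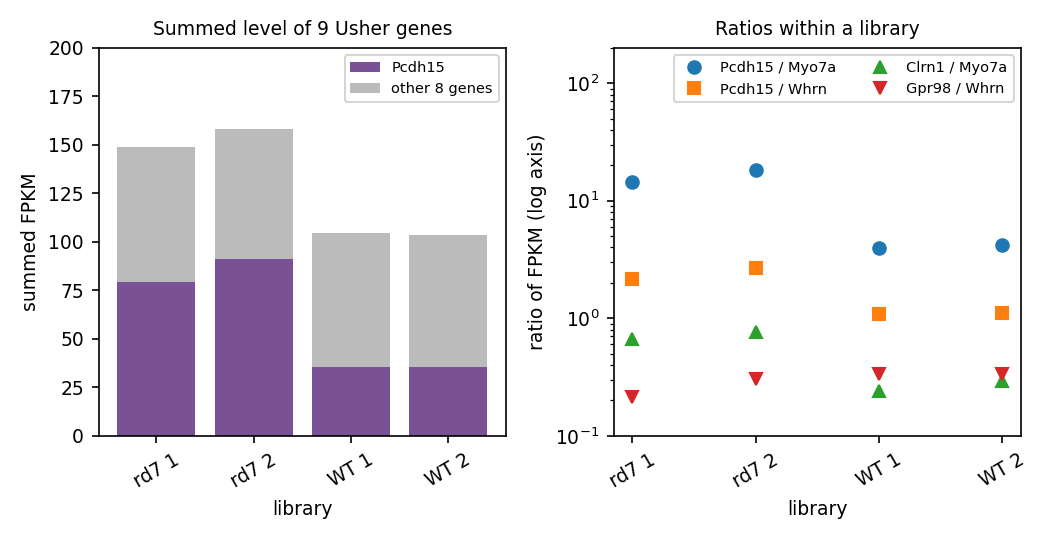
Left, summed FPKM of the 9 Usher genes in each library, with *Pcdh15* in purple and the other 8 in grey; right, ratios of FPKM between pairs of Usher genes within each library (log axis). The grey part is of the same height in the 4 libraries, between 67.1 and 69.4 FPKM, and the ratio of *Pcdh15* to *Myo7a* is above 14 in *rd7* and under 4.2 in wild-type retinas.

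The span of a locus moved with the change across the whole table. Over the 12655 genes tested, the Spearman correlation between span and log2 fold change was 0.335, a description across genes that share their libraries. Loci of at least 100 kb (n = 1736) had a median log2 fold change of 0.32, with 58.4% called higher and 4.32% lower. *Pcdh15* spans 828 kb and *Gpr98* 538 kb, so both belong to this class, but they lay on either side of its median. *Cib2* (14.7 kb), *Clrn1* (40.0 kb), *Myo7a* (68.4 kb) and *Whrn* (81.0 kb) are shorter. After a spline on span was subtracted, *Pcdh15* stood at 0.80, *Clrn1* at 0.45 and *Myo7a* at -0.98, all 3 still called by limma. The exonic GC content was 42.9% in *Pcdh15* and 43.1% in *Clrn1* and 56.2% in *Myo7a*, and the part of GC content in their opposite changes was examined only by the GC and length correction, under which *Pcdh15* (0.89) and *Myo7a* (-0.80) kept their calls and *Clrn1* did not.

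**Figure D4:**
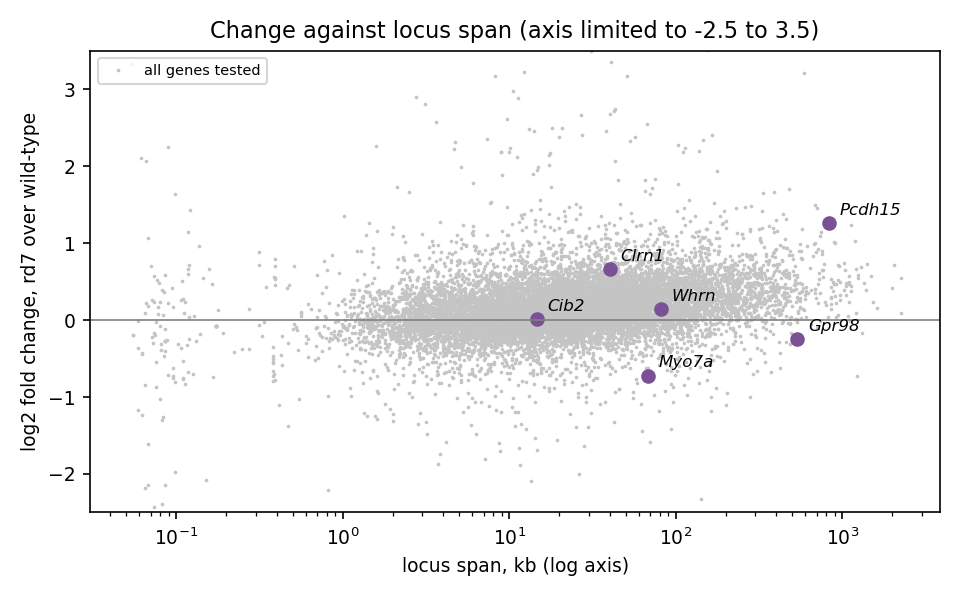
Log2 fold change (*rd7* over wild-type) against locus span in kb (log axis) for all 12655 genes tested (grey; 28 lie outside the axis) and for the 6 Usher genes tested (purple). Among the long loci at the right, *Pcdh15* lies above and *Gpr98* below most genes of similar span, and *Myo7a* lies below most genes of its span.

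The genes around the Usher network were read from the same fit in 4 lists. Of 53 symbols, 51 were listed and 28 tested, of which 10 were called higher and 3 lower (35.7% and 10.7%, compared with the 37.6% and 8.8% of all genes), with a median log2 fold change of 0.09. Of the partners, which bind Usher proteins or act with them, 8 were tested, with 6 higher, 1 lower and a median of 0.42. *Magi2*, a scaffold that binds SANS, had 8.13 and 7.66 against 5.35 and 5.25 FPKM and rose by 0.57 (limma adjusted p = 0.00248). *Slc4a7*, a bicarbonate transporter that binds harmonin, rose by 0.52 (limma adjusted p = 0.0127), from 34.0 and 37.0 to 56.8 and 45.7 FPKM. *Dock4*, a guanine nucleotide exchange factor, rose by 0.65 (limma adjusted p = 0.0208), with 2.80 and 2.16 against 1.45 and 1.62 FPKM. All 3 were higher in both *rd7* libraries than in either wild-type library, which held for 57.1% of all genes tested. They were named for being called with a change of at least 0.5, so this adds no support to the calls.

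The pair that works with myosin VIIa on melanosomes moved apart. *Rab27a*, a small GTPase, rose by 0.51 (limma adjusted p = 0.00566), with 4.03 and 4.24 against 2.88 and 2.86 FPKM, while *Myrip*, which links Rab27a to the myosin, fell by 0.37 (limma adjusted p = 0.00659), with 9.57 and 10.3 against 12.9 and 12.8 FPKM. Of these 5 partners, all kept their call with median-ratio scaling. Under the GC and length correction *Magi2* and *Myrip* kept it, and *Slc4a7*, *Dock4* and *Rab27a* did not. After the span correction *Rab27a* (0.28, limma adjusted p = 0.0464) and *Myrip* (-0.70) kept their calls, and *Magi2* (0.06), *Slc4a7* (0.24) and *Dock4* (0.25) lost them. The other calls, *Mpp1* (0.33) and *Cask* (0.22), were lost with median-ratio scaling and had the opposite sign under the GC and length correction (-0.03 and -0.08). *Mpp5* was not called, *Ninl* was under 1 FPKM on average, and *Pdzd7* and *Sptbn5* were not analysed here. *Myrip*, *Mpp1*, *Cask* and *Mpp5* are named after their values were seen.

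Of the list of paralogs and of the gut complex, in which relatives of the Usher proteins link microvilli, only 2 of 10 genes were tested and neither was called, *Cib1* (-0.19, 95% interval -0.36 to -0.0086) and *Cdhr1* (0.10, 95% interval -0.02 to 0.21, with the opposite sign under median-ratio scaling). *Cib1* was called lower with median-ratio scaling (-0.34) and after the span correction (-0.25). *Cdhr1*, a cadherin of the photoreceptor disc base, was abundant at 230 to 252 FPKM, and the other 8, including *Myo7b*, *Anks4b*, *Cdhr2* and *Cdhr5*, were under 1 FPKM on average. Of the hair bundle list, 7 of 21 genes were tested. *Myo6*, an actin motor, rose by 0.37 (limma adjusted p = 0.00749), and *Fscn2*, an actin bundler of photoreceptors, fell by 0.46 (limma adjusted p = 0.00271), from 62.8 and 59.8 to 42.9 and 45.9 FPKM. *Fscn2* was lower in 14 of 14 alternatives, and *Myo6* was not called under the GC and length correction (0.02) or the span correction (0.05). *Eps8*, *Espn*, *Lhfpl5*, *Pls1* and *Triobp* were not called (log2 fold changes between -0.18 and -0.06). Of these, *Eps8* was called lower in 4 of 14 alternatives, among them median-ratio scaling (-0.33, limma adjusted p = 0.0134), the GC and length correction (-0.45) and the span correction (-0.52), and *Triobp* was called lower after the span correction (-0.40). The other 14, among them the channel genes *Tmc1* and *Tmc2* and the partner of whirlin in hair cells, *Myo15*, were under 1 FPKM on average.

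All 11 genes of the connecting cilium were tested, with 3 higher, 1 lower and a median of 0.09, so the counts were near or under the 37.6% and 8.8% of all genes, and the genes below are single results. *Lca5*, which encodes the ciliary protein lebercilin, had 36.5 and 35.2 FPKM in *rd7* and 21.0 and 21.2 in wild-type retinas, a rise of 0.76 (limma adjusted p = 0.00061). The ciliary kinase gene *Mak* (0.44) and *Topors* (0.32) rose as well, and *Rp1l1*, a gene of the axoneme, fell by 0.21. *Lca5* and *Mak* were called in 14 of 14 alternatives, but their rises shrank to 0.44 and 0.20 under the GC and length correction. The call of *Topors* was lost with median-ratio scaling (0.17) and under the GC and length correction (0.03). That of *Rp1l1* was kept under both (-0.37 and -0.34). The other 7, among them *Rpgrip1*, *Rp1*, *Spata7*, *Nphp4*, *Ahi1* and *Iqcb1*, were not called. Under the GC and length correction *Rp1* (-0.35, limma adjusted p = 0.00592), *Spata7* (-0.31, limma adjusted p = 0.0166) and *Iqcb1* (-0.28, limma adjusted p = 0.0352) were called lower, against values of 0.04, 0.04 and 0.12 as deposited. The genes named from the last 2 lists, except *Lca5*, were chosen after their values were seen, as were *Cib1* and *Cdhr1*.

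**Figure D5:**
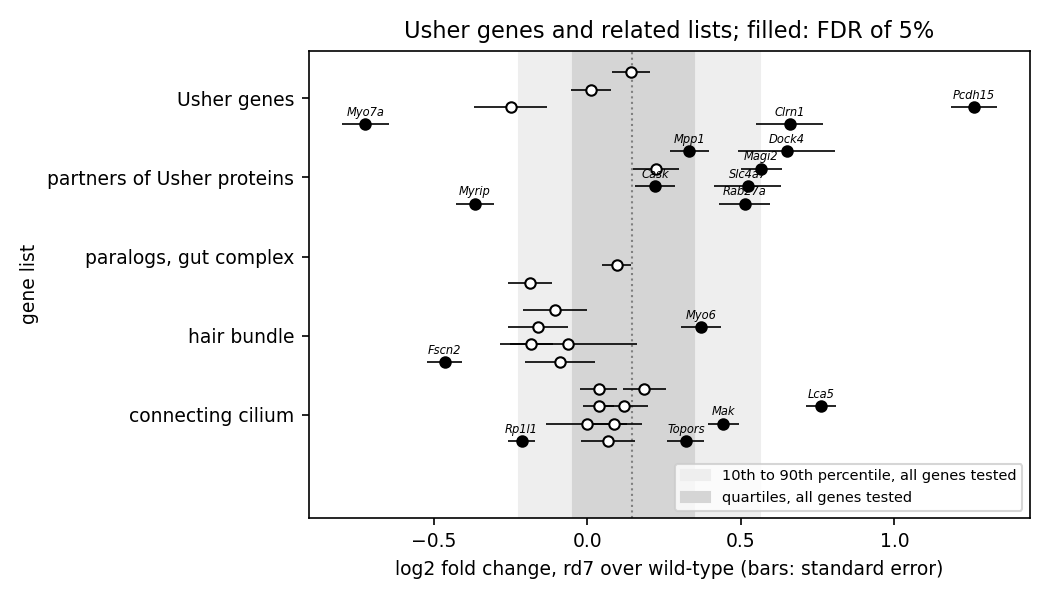
Log2 fold change (*rd7* over wild-type) with its standard error for the tested genes of the Usher list and of 4 related lists; filled points passed the FDR of 5% and are named, and the bands give the quartiles and the 10th to 90th percentile of all genes tested (-0.22 to 0.56). *Pcdh15*, *Clrn1*, *Dock4*, *Magi2* and *Lca5* lie above the outer band, and *Myo7a*, *Gpr98*, *Fscn2* and *Myrip* below it.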

How the data were processed

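Retinal RNA of 4 libraries was sequenced by the authors as single reads of 50 bp, mapped to mm9 with TopHat 1.4.1 and given a value per gene by Cufflinks 1.3.0. The deposited unit is FPKM, beside which each library has a status. The table of the authors' own comparison holds pooled values, fold changes, p-values and q-values and was not used.

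The genes compared had an average FPKM of 1 or more and a successful estimate in all 4 libraries (262 loci failed in at least 1). The fit of *rd7* against wild-type, with no block, used limma 3.58.1 (R 4.3.3), a trended eBayes prior, two-sided tests and Benjamini-Hochberg adjustment. This step was tested on simulated data in which 200 genes were changed. Those data had independent noise and no trend with GC content, length or span and no shift of all genes. The simulation therefore does not bear on the changes of the calls with such trends or with scaling. The members, gene lists and tests were chosen with earlier results of these data known. Named were all members and, of each related list, up to 4 called genes per direction that changed by at least 0.5, with genes not tested by name only, and the text says which others were chosen after their values were seen. Exonic length and GC content came from the GENCODE annotation and genome of the same build (96.8% of genes tested), and the deposited starts, which count from 0, were rewritten to count from 1. Symbols and promoters came from RefSeq. Reads were estimated from the lowest FPKM times exonic length of genes with a single transcript over 800 bp (between 0.02 and 0.036 FPKM times kb, a window set after the values were seen), and cover counting error only. The summaries were made in Python 3.11.15.

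The alternatives were pseudocounts of 1 and 0.01, an average of 5 FPKM or more, no filter, quantile normalization, scaling by median ratios, an untrended prior, blocking on the replicate number, corrections by natural splines for locus span and for exonic GC content and length, and leaving out each library. Where an arm then held 1 library, its spread was assumed to be that of the other arm.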

Additional observations from a re-analysis of the deposited data

How the results depend on the processing

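*Pcdh15* and *Myo7a* kept their direction and call under all alternatives tried. The Usher genes called higher were 1 in place of 2 at a mean FPKM of at least 5 (*Clrn1* is then not tested) and under the GC and length correction, and those called lower were 2 in place of 1 (*Gpr98* added) with median-ratio scaling, the locus span correction and the GC and length correction. With a library left out, between 1 and 3 were higher and between 1 and 2 lower. Of the related genes, 10 higher and 3 lower as reported, the counts were 7 and 5 under median-ratio scaling, 6 and 5 under quantile normalization, 4 and 6 with the span correction and 3 and 7 with the GC and length correction. Between 3 and 14 were higher and between 1 and 5 lower with a library left out, the lowest counts without either wild-type library (3 and 1). *Cib2*, not called, changed sign under median-ratio scaling (-0.14), under quantile normalization (-0.14), the span correction (-0.11), without *rd7* replicate 1 (-0.024) and without wild-type replicate 2 (-0.045, the range with a library left out being -0.045 to 0.071), and *Whrn* with median-ratio scaling (-0.012) and the span correction (-0.13). Median-ratio scaling moved the all-gene median of the log2 fold change from 0.15 to -0.0049, with 2492 genes higher and 2479 lower (4755 and 1114 without it), quantile normalization gave 2350 and 2404, the span correction 2042 and 2258 and the GC and length correction 1530 and 1830. With a library left out, 1293 (without wild-type replicate 1) to 5484 genes were higher and 224 (likewise) to 1601 lower. The cause was not tested. Libraries sharing a replicate number were not treated as pairs, and the labels give no pairing. Deviations of those numbered 1 had r = -0.0265 across genes, a value that cannot tell whether they were handled together. With a replicate block 2 Usher genes were higher and 1 lower, as without it, and 9 related genes higher and 3 lower. Depth limits *Ush1c*, and 2 libraries per genotype limit all intervals.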
